A study of Rattus norvegicus with 12 samples.

Results

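Expression of 40 genes of mitochondrial and peroxisomal fatty acid oxidation was compared between the kidneys of 4 rat strains. The genes were taken from a list of the pathway written by function, with earlier results of these data known. Each was measured by the probe set that names that gene alone and has the highest mean over all arrays. Such a probe set was found for 39 of the 40, among 14169 genes measured in all. Acaa1a, the peroxisomal thiolase, had only a probe set shared with Acaa1b. The list holds no fatty acid uptake gene, and of the ketone body pathway it holds Acat1 alone.

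The strains were SD (Sprague Dawley), PCK, which derives from SD and carries a mutation of Pkhd1, FHH (Fawn Hooded Hypertensive), and FHH.Pkhd1, which carries a chromosome 9 segment of PCK on the FHH background. The segment is bounded by the markers in the name of the congenic strain, FHH.PCK-(D9Rat35-D9Rat70)/Mcwi, and may hold other variants besides Pkhd1. All rats were fed the same Purina diet and were 30 days old, and the labels used here do not state their sex. Per strain, the kidneys of 6 animals gave 1 RNA pool, which was hybridized to 3 arrays, so the 12 arrays represent 4 pools. The spread behind each standard error (SE) and p-value is thus that between arrays of the same pool, and the spread between animals was not measured.

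Fatty acids are activated to acyl-CoA, carried into mitochondria by the carnitine shuttle, and shortened by repeated rounds of dehydrogenation, hydration, oxidation and thiolysis. Peroxisomes shorten very long, branched and dicarboxylic chains by a parallel set of enzymes, and double bonds in unsaturated chains need auxiliary isomerases and reductases. In the kidney the proximal tubule relies heavily on this pathway for ATP, and many of its genes are targets of the nuclear receptor PPAR-alpha, encoded by Ppara.

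The median log2 signal per array was 6.41 to 6.46. Arrays of a pool correlated at 0.9973 to 0.9985 and arrays of different pools at 0.9862 to 0.9959, and the number of arrays limits the precision. Genes were tested if at least 1 pool mean was 5.74 or more. This detection level is a percentile of the values (40th) and not a measured background. This left 10863 genes and 37 members. The other measured members, Ppara (5.07 to 5.45 over the pools) and the peroxisomal oxidase Acox3 (5.36 to 5.60), stayed below it in all pools. A gene was called at a limma adjusted p under 0.05 and a difference of at least 1.5-fold. Controls also differed: the mean of the poly-A spike-ins was 10.81 in PCK, 10.47 in SD, 11.11 in FHH and 10.01 in FHH.Pkhd1, and the 3′ probe set of beta-actin exceeded the 5′ one by 1.10 (SD) to 1.39 (FHH). The part of these differences in the results was not tested.

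The 4 members called higher in PCK than in SD were chosen by that call, and their upstream sequences are shown. Each is the 250 bases before the gene's start in RefSeq's GRCr8 assembly, which is the BN reference and not one of the strains measured. Capitals mark AGGTCA, the core hexamer of nuclear receptor sites, and GGGCGG, the GC box, each on either strand.
Ehhadh promoter, chr11:92746159-92746408, GRCr8, + strand: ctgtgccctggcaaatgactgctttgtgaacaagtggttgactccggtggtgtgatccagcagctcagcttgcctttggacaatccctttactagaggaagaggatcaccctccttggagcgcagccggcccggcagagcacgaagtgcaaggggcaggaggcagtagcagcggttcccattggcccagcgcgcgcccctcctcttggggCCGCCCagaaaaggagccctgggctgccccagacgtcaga
Eci1 promoter, chr10:13961000-13961249, GRCr8, + strand: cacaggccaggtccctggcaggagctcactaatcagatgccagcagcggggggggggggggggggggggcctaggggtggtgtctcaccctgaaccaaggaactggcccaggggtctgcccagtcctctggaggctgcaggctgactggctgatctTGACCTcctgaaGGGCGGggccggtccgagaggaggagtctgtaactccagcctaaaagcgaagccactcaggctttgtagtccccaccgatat
Eci2 promoter, chr17:30075516-30075765, GRCr8, + strand: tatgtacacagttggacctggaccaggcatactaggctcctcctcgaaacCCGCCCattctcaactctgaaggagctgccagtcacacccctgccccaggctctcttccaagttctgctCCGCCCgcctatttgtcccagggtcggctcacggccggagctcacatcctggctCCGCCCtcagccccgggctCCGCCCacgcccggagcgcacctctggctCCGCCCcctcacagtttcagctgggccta
Crot promoter, chr4:26052874-26053123, GRCr8, + strand: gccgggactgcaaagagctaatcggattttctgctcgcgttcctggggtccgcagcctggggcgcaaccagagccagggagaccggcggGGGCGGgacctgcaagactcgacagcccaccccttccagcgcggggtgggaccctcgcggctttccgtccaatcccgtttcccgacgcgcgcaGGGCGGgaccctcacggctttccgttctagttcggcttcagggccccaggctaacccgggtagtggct
Of these windows the Eci1 one held AGGTCA, 94 bases before the start and on the opposite strand, and all 4 held a GC box. Of the 2 members called lower in PCK than in SD, Hsd17b4 held AGGTCA, 56 bases before the start, and both Hsd17b4 and Acadsb held a GC box. Among the 35 members with a window, 6 held AGGTCA (17.1%), against 10.7% of the windows of tested genes and 14.1% of all 33469 windows. GGGCGG stood in 24 of the 35, against 59.1% of the windows of tested genes and 30.5% of all windows. AGGTCANAGGTCA, the pair of hexamers to which PPAR-alpha binds with its partner RXR, was searched on both strands with up to 2 mismatches, N counting as any base. It was found in 6 of the 35 members, namely Acadvl, Acot8, Cat, Crat, Echs1 and Etfa, against 2.49% of the windows of tested genes and 3.15% of all windows. A match of this motif can hold AGGTCA as well. The closest matches, with 1 mismatch, are shown with the matching letters in capitals.
Acadvl site, chr10:55236710-55236722, GRCr8: AGGTCAgtGGTCA
Acot8 site, chr3:173962198-173962210, GRCr8: gGGTCAgAGGTCA
They lie 17 and 22 bases before the start of Acadvl and Acot8, on the strand of the gene. None of the 6 members with this motif was called in any comparison, by limma at 1.5-fold, and their differences in PCK minus SD ran from -0.20 for Etfa to 0.09 for Crat. A match is a description of letters and not of binding.

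PCK minus SD sets the mutant strain against the stock it derives from. Of the 37 tested members, 4 rose and 2 fell in PCK. Those that rose were Ehhadh, of 5 peroxisomal members, Eci1 and Eci2, of 5 that handle double bonds, and Crot, of 6 in the carnitine shuttle. Those that fell were Hsd17b4, also peroxisomal, and Acadsb, of 11 in the mitochondrial spiral. Of all tested genes 3.12% were called, 1.69% higher and 1.43% lower. The median difference of the members was 0.02, against 0.00 over all tested genes. Of the 37 differences 22 were above 0, as were 49.5% of those of all tested genes. With no fold limit, 25 members passed an adjusted p under 0.05 (36.1% of all tested genes), 13 higher (17.3%) and 12 lower (18.8%). The arrays of PCK and SD did not overlap for 28 members (47.5% of all tested genes). The 95% interval of the difference lay within 1.5-fold for 29 of the 37 members and for 10267 of all 10863 tested genes.

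**Figure D1:**
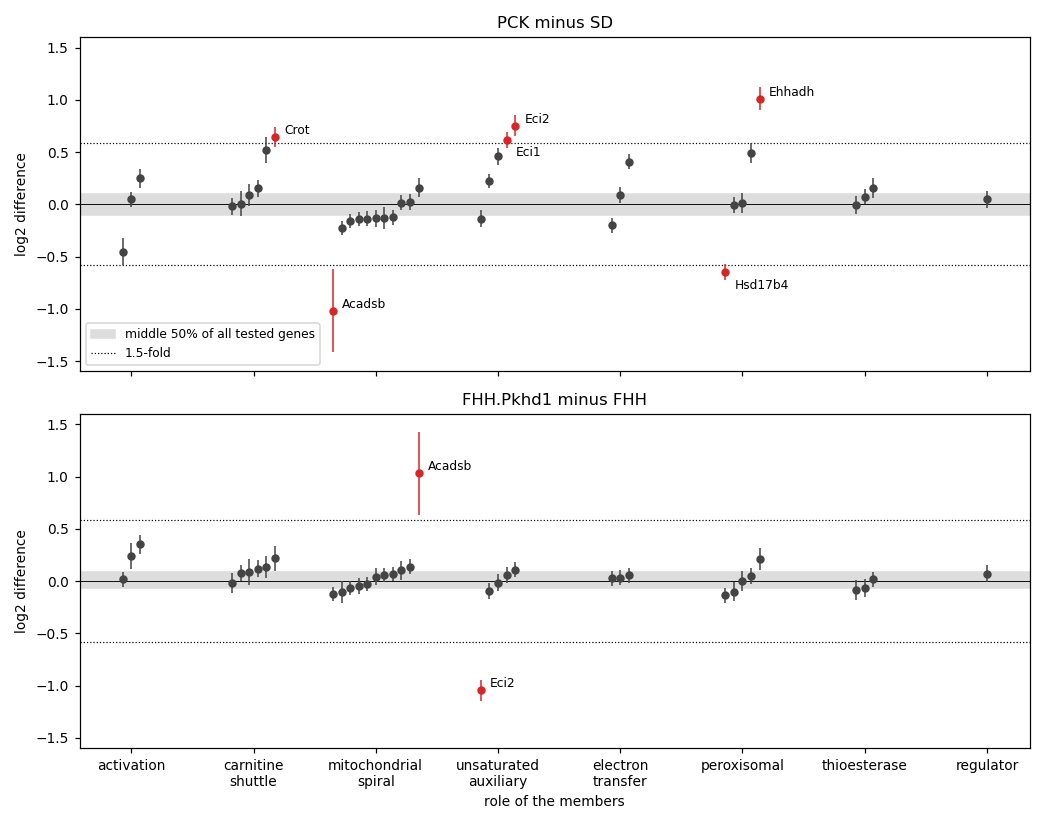
Log2 difference of each tested member (points) with its 95% limma interval (bars), grouped by role, for PCK minus SD (top) and FHH.Pkhd1 minus FHH (bottom); red points were called, the grey band is the middle 50% of all tested genes and dotted lines mark 1.5-fold. In PCK minus SD the members Crot, Eci1, Eci2 and Ehhadh lie above the upper line and Acadsb and Hsd17b4 below the lower one, while in FHH.Pkhd1 minus FHH only Acadsb (above) and Eci2 (below) lie outside the lines.

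Ehhadh encodes the peroxisomal L-bifunctional enzyme, which hydrates and oxidizes enoyl-CoA. Its log2 signals were 10.29, 10.37 and 10.32 in PCK, 9.36, 9.31 and 9.27 in SD, 9.42, 9.34 and 9.32 in FHH and 9.64, 9.46 and 9.61 in FHH.Pkhd1. The PCK arrays stood above all others, and those of SD and FHH overlapped. Ehhadh was 2.02-fold higher in PCK than in SD (log2 difference 1.01 ± 0.05, SE, limma adjusted p = 1.46e-08). Hsd17b4 encodes the D-bifunctional enzyme, which performs the same steps with the other stereochemistry and serves branched chains and bile acid intermediates. Its signals were 10.96, 10.98 and 11.02 in PCK, 11.66, 11.61 and 11.64 in SD, 11.55, 11.48 and 11.50 in FHH and 11.39, 11.36 and 11.37 in FHH.Pkhd1. The PCK arrays were below all others and the SD arrays above all others. Hsd17b4 was 1.57-fold lower in PCK than in SD (-0.65 ± 0.03, limma adjusted p = 2.16e-08), so these bifunctional enzymes moved in opposite directions.

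The other peroxisomal members did not pass the fold limit. Acox2, the oxidase of branched chains and bile acid intermediates, had the largest difference of them in PCK minus SD (0.49 ± 0.04, SE, limma adjusted p = 3.26e-06). Its signals were 7.67, 7.81 and 7.75 in PCK, 7.17, 7.31 and 7.27 in SD, 7.81, 7.82 and 7.79 in FHH and 7.82, 7.79 and 7.81 in FHH.Pkhd1. The SD arrays were the lowest, and PCK did not stand above the FHH strains. Abcd3, which carries long acyl-CoA into peroxisomes, stood at -0.01 ± 0.03, and catalase, Cat, which removes the hydrogen peroxide the oxidases make, at 0.01 ± 0.04. The probe set shared by Acaa1a and Acaa1b, fitted with all probe sets, stood at 0.21 ± 0.04 (limma adjusted p = 0.000887), and it cannot be assigned to either gene.

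Among the 5 members that handle double bonds, Eci1 and Eci2 rose in PCK. Eci1 encodes the mitochondrial enoyl-CoA isomerase. Its signals were 11.52, 11.55 and 11.52 in PCK, 10.95, 10.89 and 10.90 in SD, 10.81, 10.76 and 10.84 in FHH and 10.90, 10.87 and 10.82 in FHH.Pkhd1. The PCK arrays lay above all others, by 1.54-fold in the mean against SD (0.62 ± 0.04, SE, limma adjusted p = 5.54e-08). Eci2 encodes an isomerase found in peroxisomes and mitochondria. Its signals were 10.32, 10.41 and 10.38 in PCK, 9.69, 9.56 and 9.59 in SD, 9.96, 9.94 and 9.90 in FHH and 8.82, 8.88 and 8.97 in FHH.Pkhd1. No pool overlapped another: PCK was highest, then FHH, then SD, and FHH.Pkhd1 was lowest. Eci2 was 1.69-fold higher in PCK than in SD (0.75 ± 0.05, limma adjusted p = 1.14e-07).

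Ech1, the dienoyl-CoA isomerase, was below the fold limit at 0.46 ± 0.04 in PCK minus SD (SE, limma adjusted p = 1.34e-06). Its signals were 11.41, 11.49 and 11.42 in PCK, 10.99, 10.96 and 10.99 in SD, 11.09, 11.04 and 11.09 in FHH and 10.98, 10.92 and 11.03 in FHH.Pkhd1, and the PCK arrays again stood above all others. Decr1, the mitochondrial dienoyl-CoA reductase, gave 0.22 ± 0.03, and Decr2, its peroxisomal counterpart, gave -0.14 ± 0.04. All 5 genes had an adjusted p under 0.05 in PCK minus SD, 4 of them with higher signals in PCK and Decr2 with lower ones.

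**Figure D2:**
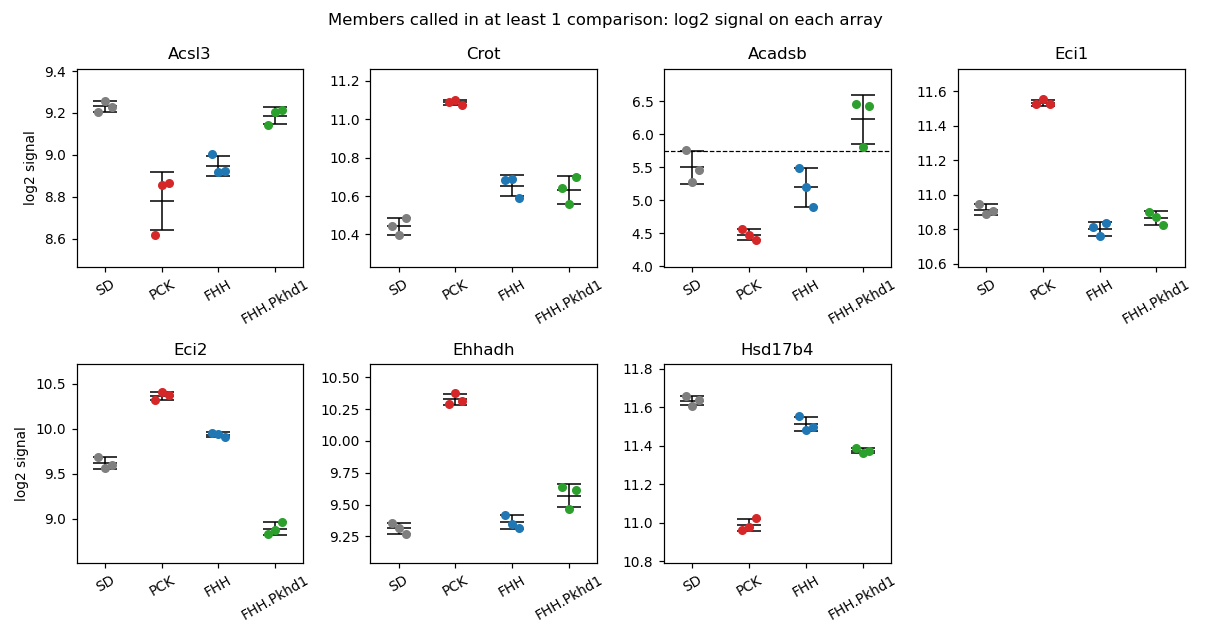
Log2 signal on each array (points, 3 per pool) with the pool mean and standard deviation (bars) for the 7 members called in at least 1 comparison; the axes differ between panels and the dashed line marks the detection level of 5.74. PCK arrays are the highest for Crot, Eci1, Eci2 and Ehhadh and the lowest for Acsl3, Acadsb and Hsd17b4.

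In the carnitine shuttle, Crot rose in PCK. It encodes the peroxisomal octanoyltransferase, which makes medium-chain acylcarnitines for export to mitochondria. Its signals were 11.09, 11.10 and 11.07 in PCK, 10.45, 10.40 and 10.48 in SD, 10.68, 10.69 and 10.59 in FHH and 10.64, 10.56 and 10.70 in FHH.Pkhd1. The PCK arrays stood above all others and the SD arrays below all others, and PCK was 1.57-fold higher than SD (0.65 ± 0.04, SE, limma adjusted p = 2.82e-07). A second detected probe set of Crot gave 0.41 ± 0.07 (limma adjusted p = 0.00108) and was not called. Cpt1b, the muscle-type carnitine palmitoyltransferase of the outer mitochondrial membrane, had a difference of 0.52 ± 0.06 (limma adjusted p = 2.35e-05), under the fold limit. Its signals were 8.45, 8.40 and 8.51 in PCK, 8.06, 7.91 and 7.83 in SD, 8.39, 8.36 and 8.36 in FHH and 8.47, 8.37 and 8.53 in FHH.Pkhd1, with the SD arrays below all others. Without SD replicate 1 its difference was 0.59 and it was called.

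The other shuttle genes differed little. Cpt1a, the liver-type enzyme of the rate-controlling step, stood at 0.15 ± 0.04 in PCK minus SD. Cpt2 of the inner membrane stood at 0.01 ± 0.06, the carrier Slc25a20 at -0.02 ± 0.04 and the acetyltransferase Crat at 0.09 ± 0.05. Of the acyl-CoA synthetases, which activate fatty acids, Acsl1 was at 0.25 ± 0.04 and Acsl4 at 0.05 ± 0.03. Acsl3, which acts at lipid droplets and the endoplasmic reticulum, stood at -0.45 ± 0.06 (limma adjusted p = 7.85e-05), under the fold limit. Its signals were 8.62, 8.86 and 8.86 in PCK, 9.21, 9.26 and 9.23 in SD, 9.002, 8.92 and 8.92 in FHH and 9.14, 9.21 and 9.22 in FHH.Pkhd1. PCK was the lowest pool, and SD and FHH.Pkhd1 overlapped.

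Of the 11 enzymes of the mitochondrial spiral, Acadsb alone was called in PCK minus SD, and 8 of the 11 had a lower mean in PCK. Acadsb encodes the short and branched chain acyl-CoA dehydrogenase, which also degrades isoleucine. Its signals were 4.57, 4.47 and 4.40 in PCK, 5.76, 5.28 and 5.45 in SD, 5.50, 5.20 and 4.90 in FHH and 6.46, 5.81 and 6.43 in FHH.Pkhd1. They were lower in PCK than in SD with no overlap (-1.02 ± 0.18, SE, limma adjusted p = 0.000948). The means of PCK, SD and FHH lay below the detection level, so no fold is given, and Acadsb was tested through the FHH.Pkhd1 pool alone. In a fit of the PCK and SD arrays only, it was not tested. Its standard deviation between arrays of a pool reached 0.37 in FHH.Pkhd1.

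The other acyl-CoA dehydrogenases, which act on successive chain lengths, had small differences. Acads stood at -0.13 ± 0.05, Acadm at -0.16 ± 0.03, Acadl at -0.14 ± 0.04 and Acadvl at 0.02 ± 0.03. Acadm, the medium-chain enzyme, had signals of 12.31, 12.32 and 12.27 in PCK, 12.49, 12.45 and 12.43 in SD, 12.12, 12.10 and 12.10 in FHH and 12.05, 12.03 and 12.04 in FHH.Pkhd1. Here the order was SD, PCK, FHH and FHH.Pkhd1, with no overlap between pools. The subunits of the trifunctional protein, Hadha (0.16 ± 0.04) and Hadhb (0.02 ± 0.03), gave small differences, and all PCK arrays of Hadha lay above the others. The hydratase Echs1 (-0.12 ± 0.03), the dehydrogenase Hadh (-0.14 ± 0.03) and the thiolase Acaa2 (-0.14 ± 0.03) were slightly lower in PCK, as was the acetoacetyl-CoA thiolase Acat1 (-0.23 ± 0.03). For Acaa2 a dimmer second probe set gave 0.34 ± 0.07, of the opposite sign, while for Acat1 the second gave -0.22 ± 0.05.

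Electrons from these dehydrogenases pass through the electron transfer flavoprotein to ubiquinone. Its subunits stood at -0.20 ± 0.03 (Etfa) and 0.09 ± 0.03 (Etfb) in PCK minus SD. The oxidoreductase Etfdh, which accepts electrons from the flavoprotein, was at 0.41 ± 0.03 (SE, limma adjusted p = 1.19e-06), under the fold limit. Its signals were 10.15, 10.18 and 10.19 in PCK, 9.81, 9.75 and 9.74 in SD, 9.71, 9.71 and 9.72 in FHH and 9.77, 9.74 and 9.71 in FHH.Pkhd1, with PCK above all others and SD overlapping FHH.Pkhd1. The acyl-CoA thioesterases, which release free fatty acids, stood at 0.07 ± 0.03 (Acot1), 0.16 ± 0.04 (Acot2) and 0.00 ± 0.04 (Acot8). Ppargc1a, a coactivator of mitochondrial genes, was at 0.05 ± 0.04.

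FHH.Pkhd1 minus FHH asks what the PCK segment changes on the FHH background, and it shares no array with PCK minus SD. Here 2 of 37 members were called, where 1.27% of all tested genes were. Acadsb was higher (0.396% of all tested genes) and Eci2 lower (0.875%). The median of the members was 0.04 against 0.01 over all tested genes. With no fold limit 11 members passed, against 22.3% of all tested genes, and the arrays did not overlap for 21 members, against 38.2%. The interval lay within 1.5-fold for 35 of the 37 and for 10563 of all 10863 tested genes.

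Eci2 was 2.07-fold lower in FHH.Pkhd1 than in FHH (-1.05 ± 0.05, SE, limma adjusted p = 1.61e-08), the opposite of its difference in PCK minus SD. Acadsb was higher in FHH.Pkhd1 (1.03 ± 0.18, limma adjusted p = 0.00168), again opposite to PCK minus SD, with FHH below the detection level. As it passed the filter through the FHH.Pkhd1 pool, it had to be higher there, and its count among the called members supports nothing further. Ehhadh stood at 0.21 ± 0.05 (limma adjusted p = 0.00988), under the fold limit. Acsl1, the main long-chain synthetase of oxidative tissues, had the largest uncalled difference (0.35 ± 0.04, limma adjusted p = 7.96e-05), and its second detected probe set gave 0.43 ± 0.05. Its mean signal was 11.34 in FHH.Pkhd1, 11.17 in PCK, 10.99 in FHH and 10.92 in SD, with the FHH.Pkhd1 arrays above and the SD arrays below all others. Crot (-0.02 ± 0.04), Eci1 (0.06 ± 0.04) and Etfdh (0.03 ± 0.03), which were higher in PCK than in SD, stood near 0 here. Of the members, Acsl3 and Acadl lie on chromosome 9, which holds Pkhd1, and they stood at 0.24 ± 0.06 and 0.04 ± 0.04. Whether they lie inside the segment was not determined.

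Whether the 2 differences were alike was tested by the interaction, PCK minus SD less FHH.Pkhd1 minus FHH. PCK and SD may also differ outside the PCK segment, so the interaction does not measure the segment alone. The interaction was called for 5 of 37 members, against 5.04% of all tested genes, with 3 above 0 (2.91%) and 2 below (2.13%). With no fold limit 17 passed, against 30.7%. The interaction was 1.80 ± 0.07 for Eci2 (SE, limma adjusted p = 2.1e-09), 0.80 ± 0.07 for Ehhadh (3.7e-06), -0.69 ± 0.08 for Acsl3 (5.6e-05) and 0.67 ± 0.06 for Crot (6.25e-06). The call that remains was that of Acadsb (-2.05 ± 0.26), which entered the test through the FHH.Pkhd1 pool alone and had its other means below the detection level, so its value is a description. Acadsb, Eci2 and Acsl3 had differences of opposite sign in the 2 comparisons. Eci1 (0.56 ± 0.05), Ech1 (0.55 ± 0.05) and Hsd17b4 (-0.51 ± 0.05) were under the fold limit, and with quantile normalization Eci1 (0.60) and Ech1 (0.59) were called.

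PCK and FHH.Pkhd1 carry the same segment on different backgrounds. Of the 37 members 4 were called, against 5.84% of all tested genes, 3 higher in PCK (2.94%) and 1 lower (2.9%). With no fold limit 19 passed (53.9% of all tested genes), and 22 had arrays that did not overlap (60.3%). These values share the PCK arrays with PCK minus SD and the FHH.Pkhd1 arrays with FHH.Pkhd1 minus FHH. Eci2 was 2.79-fold higher in PCK (1.48 ± 0.05, SE, limma adjusted p = 1.24e-10), Ehhadh 1.69-fold (0.76 ± 0.05, limma adjusted p = 1.13e-07) and Eci1 1.59-fold (0.67 ± 0.04, limma adjusted p = 1.42e-08). The member called lower was Acadsb (-1.75 ± 0.18), with PCK below the detection level. It was tested through the FHH.Pkhd1 pool alone, so the filter favoured this direction and the call supports nothing further. The median of the members was 0.03 against -0.05 over all tested genes. Crot (0.46 ± 0.04), Ech1 (0.46 ± 0.04), Etfdh (0.43 ± 0.03), Acsl3 (-0.41 ± 0.06) and Hsd17b4 (-0.39 ± 0.03) had adjusted p-values under 0.05 but missed 1.5-fold.

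SD minus FHH compares the strains without the mutation. Limma called 0 of 37 members, while 3.3% of all tested genes were called, 1.56% higher and 1.75% lower. An unadjusted p under 0.05 was found for 18 members and for 5063 of all 10863 tested genes, and 15 passed an adjusted p under 0.05 with no fold limit, against 37.1% of all tested genes. The arrays did not overlap for 24 members, against 50.1% of all tested genes. Among members with an adjusted p under 0.05 the largest differences were those of Acox2 (-0.55 ± 0.04, SE, limma adjusted p = 1.08e-06), Cpt1b (-0.44 ± 0.06), Acaa2 (0.42 ± 0.03), Acadm (0.35 ± 0.03), Eci2 (-0.32 ± 0.05) and Ppargc1a (-0.30 ± 0.04). The second probe set of Acaa2 gave -0.35 ± 0.07, the opposite sign. Ppargc1a had signals of 9.49, 9.57 and 9.58 in PCK, 9.51, 9.51 and 9.48 in SD, 9.83, 9.80 and 9.77 in FHH and 9.91, 9.85 and 9.86 in FHH.Pkhd1, higher in both FHH strains than in PCK and SD, and its 2 other probe sets were also lower in SD than in FHH, by 0.23 and 0.51.

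**Figure D3:**
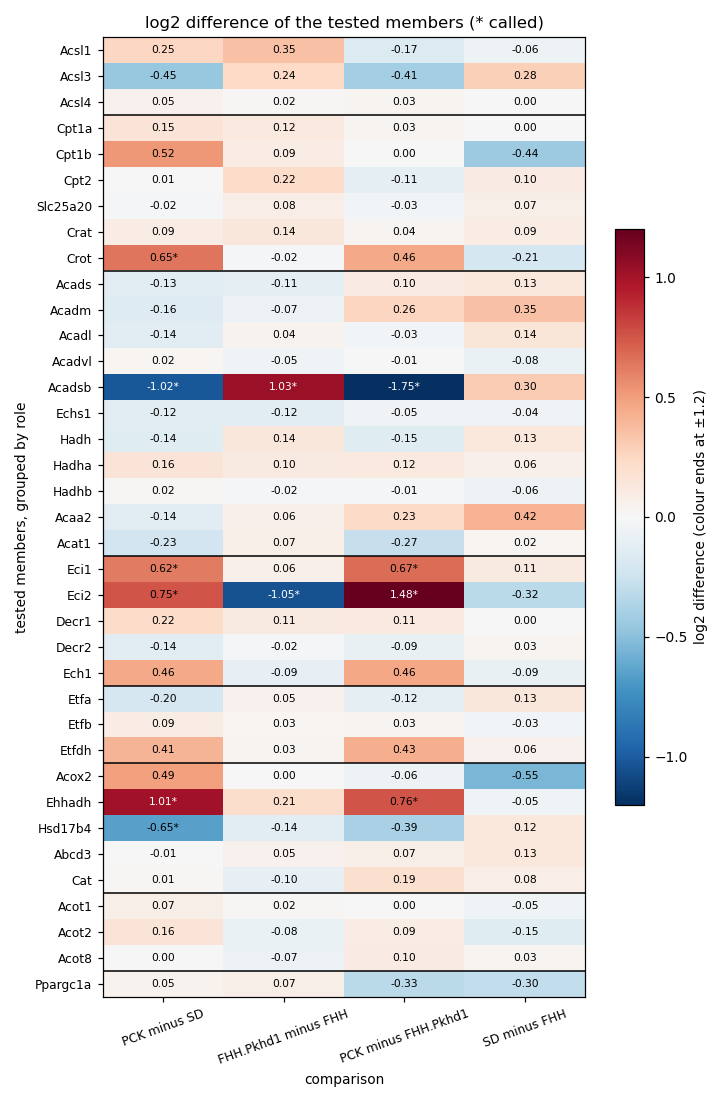
Log2 difference of the 37 tested members (rows, in blocks by role) in the 4 strain comparisons (columns), with an asterisk where the member was called and red for higher, blue for lower in the first-named strain. Calls number 6, 2, 4 and 0 from left to right, and Acadsb and Eci2 change colour between the first and second columns.

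The members were then described by the pool that stood apart. In 8 of 37 members all 3 PCK arrays lay above the 9 others, namely Crot, Decr1, Ech1, Eci1, Eci2, Ehhadh, Etfdh and Hadha, and 7.3% of all tested genes did so. In 6 of 37 (Acadsb, Acat1, Acsl3, Decr2, Etfa and Hsd17b4) they lay below the 9 others, as in 13.8% of all tested genes. The SD arrays were above the others in 6 members (6.31% of all tested genes) and below in 5 (10.4%). Those above were Acaa2, Acadl, Acadm, Acads, Etfa and Hsd17b4, all but Hsd17b4 mitochondrial. FHH.Pkhd1 was above in 4 (12.7%), namely Acadsb, Acat1, Acsl1 and Ppargc1a, and below in 3 (6.8%). FHH was above in 1 (3.92%) and below in 2 (2.27%). Acadsb was tested through the FHH.Pkhd1 pool alone, so the filter favoured its place among these 4. Its means in PCK, SD and FHH lay below the detection level, so its place in either count supports nothing further.

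Of the 39 measured members 8 had more than 1 detected probe set naming them alone, which shows how far a value rests on the probes chosen. For Eci2 there was also a probe set shared with the related gene Eci3. Its signals were 11.18, 11.28 and 11.16 in PCK, 11.45, 11.32 and 11.48 in SD, 11.06, 10.93 and 10.92 in FHH and 10.56, 10.39 and 10.57 in FHH.Pkhd1. It fell in the order SD, PCK, FHH and FHH.Pkhd1, and gave -0.21 ± 0.06 in PCK minus SD (SE, limma adjusted p = 0.0214), opposite in sign to the probe set of Eci2 alone. In PCK minus FHH.Pkhd1 it was called higher (0.70 ± 0.06, limma adjusted p = 2.76e-06) and in FHH.Pkhd1 minus FHH it gave -0.46 ± 0.06, both with the sign of the other. The rise of Eci2 in PCK against SD therefore rests on 1 probe set, and how much of the shared signal comes from Eci3 was not tested.

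Another probe set of Acot2, the mitochondrial thioesterase, also differed from the one kept. Its signals were 7.59, 7.46 and 7.58 in PCK, 7.63, 7.44 and 7.51 in SD, 7.45, 7.30 and 7.34 in FHH and 6.81, 6.74 and 6.87 in FHH.Pkhd1. It was 1.67-fold higher in PCK than in FHH.Pkhd1 by limma on all probe sets (0.74 ± 0.06, SE, adjusted p = 1.29e-06), where the probe set kept gave 0.09 ± 0.04. Acot1 and Acot2 are closely similar in sequence, and a probe set naming both gave -0.17 ± 0.05. Hadha's dimmer probe set gave -0.03 ± 0.05 in PCK minus SD, and Cpt1a's gave -0.12 ± 0.07, opposite in sign to the one kept.

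**Figure D4:**
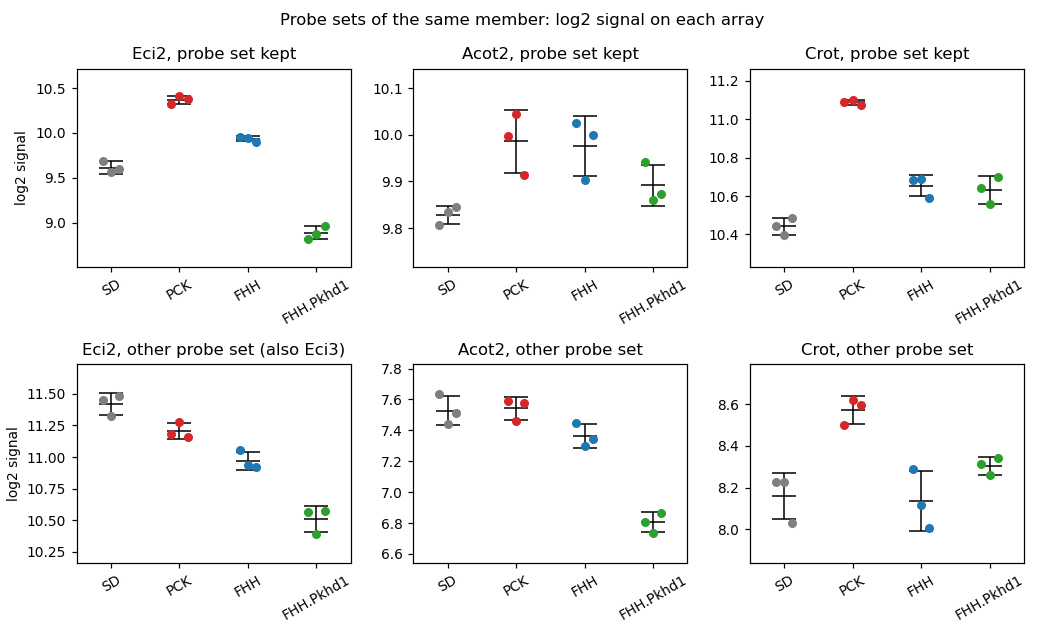
Log2 signal on each array (points, 3 per pool) with the pool mean and standard deviation (bars) for the probe set kept (top) and another detected probe set (bottom) of Eci2, Acot2 and Crot; the axes differ between panels. The probe set shared by Eci2 and Eci3 is highest in SD while that of Eci2 alone is highest in PCK, the other Acot2 probe set is lowest in FHH.Pkhd1, and both Crot probe sets are highest in PCK.

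Related genes were taken from lists written by function, also with earlier results of these data known. Of 22 tested PPAR partners and targets, 3 rose and 0 fell in PCK minus SD, against 1.69% higher and 1.43% lower among all tested genes. The list median was 0.12, against 0.00 over all tested genes. They were Vnn1, a pantetheinase (1.18 ± 0.04, SE, limma adjusted p = 3.16e-10), the lipoprotein lipase inhibitor Angptl4 (1.04 ± 0.08, limma adjusted p = 8.45e-07) and Pdk4, which inhibits pyruvate dehydrogenase (1.03 ± 0.05, limma adjusted p = 1.78e-08). All 3 are known targets of PPAR-alpha in other tissues, as is Ehhadh. Many genes of the member list are targets too. The 37 tested members had a median of 0.02 in PCK minus SD, with 4 called higher and 2 lower. The part of PPAR-alpha in these differences was not tested, and Ppara stayed below the detection level in all pools. Vnn1 had signals of 11.18, 11.16 and 11.22 in PCK, 9.99, 9.98 and 10.06 in SD, 10.04, 9.97 and 10.01 in FHH and 10.37, 10.31 and 10.34 in FHH.Pkhd1, with PCK above all others. Angptl4 had signals of 7.56, 7.90 and 7.91 in PCK, 6.79, 6.70 and 6.74 in SD, 7.17, 6.998 and 7.03 in FHH and 6.83, 6.78 and 6.81 in FHH.Pkhd1, and again PCK stood above the rest. Pdk4 had signals of 8.58, 8.66 and 8.54 in PCK, 7.62, 7.54 and 7.53 in SD, 8.44, 8.24 and 8.32 in FHH and 8.45, 8.47 and 8.44 in FHH.Pkhd1, where SD was the pool that stood apart from the others by most.

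In FHH.Pkhd1 minus FHH 1 gene of this list was called, against 1.27% of all tested genes. It was Cyp4a8, a fatty acid omega-hydroxylase, which was 10.1-fold lower (-3.33 ± 0.05, SE, limma adjusted p = 1.21e-12). Its relative Cyp4a3, chosen after its values were seen, had signals of 13.19, 13.17 and 13.19 in PCK, 12.67, 12.70 and 12.64 in SD, 12.70, 12.67 and 12.68 in FHH and 12.55, 12.51 and 12.48 in FHH.Pkhd1 and was 1.59-fold higher in PCK than in FHH.Pkhd1 (0.67 ± 0.03, limma adjusted p = 5.99e-09). Cyp4a8, Angptl4 (0.98 ± 0.08) and Vnn1 (0.85 ± 0.04) were also higher in PCK than in FHH.Pkhd1, Cyp4a8 by 22.0-fold. In SD minus FHH Cyp4a8 was higher (1.13 ± 0.05) and Pdk4 lower (-0.77 ± 0.05). Pparg, the adipocyte receptor of the same family as Ppara, was lower there (-0.69 ± 0.07) and in PCK minus FHH.Pkhd1 (-0.72 ± 0.07), and its signals in PCK and SD were below the detection level. Pparg was tested through the FHH and FHH.Pkhd1 pools alone, so the filter favoured this direction and these calls support nothing further. The interaction was called for 5 of the 22 tested genes of the list, each above 0, against 2.91% of all tested genes. It was largest for Cyp4a8 (3.33 ± 0.08), Angptl4 (1.30 ± 0.11), Pdk4 (0.91 ± 0.07) and Vnn1 (0.84 ± 0.05).

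Of 36 other tested genes of fatty acid oxidation, 1 rose (1.69% of all tested genes) and 1 fell (1.43%) in PCK minus SD, with a median of -0.12. Acot7, a cytosolic thioesterase, was 1.59-fold higher in PCK (0.67 ± 0.05, SE, limma adjusted p = 3.15e-07), and Acad10, a dehydrogenase of the same family as Acadm, was 1.65-fold lower (-0.72 ± 0.05, limma adjusted p = 3.39e-07). Limma called 0 of the 36 in FHH.Pkhd1 minus FHH, where 14 had an unadjusted p under 0.05 and the largest difference was that of Acot12 (0.28 ± 0.08). In PCK minus FHH.Pkhd1 Acsm3 was higher (1.36 ± 0.06), and Acot12 (-0.72 ± 0.08) and the adipocyte fatty acid carrier Fabp4 (-1.45 ± 0.06), also a white fat marker, were lower. In SD minus FHH the medium-chain synthetase Acsm3 was 2.59-fold higher in SD (1.37 ± 0.06, limma adjusted p = 5.25e-09) and Fabp4 was lower (-0.81 ± 0.06, limma adjusted p = 3.83e-07). The interaction was called for 5 of these 36 genes, against 5.04% of all tested genes, and was largest for Acot7 (0.71 ± 0.06), Fabp4 (-0.64 ± 0.08), Acot12 (-0.62 ± 0.12) and Acad10 (-0.62 ± 0.07). Of 7 tested ketone body genes limma called 0 in PCK minus SD, and 0 in the comparison of FHH.Pkhd1 with FHH, with an unadjusted p under 0.05 for 4 and 6 of them. Slc16a1, a carrier of lactate and ketone bodies, had the largest difference in both (0.51 ± 0.04 and -0.24 ± 0.04) and was 1.59-fold higher in PCK than in FHH.Pkhd1 (0.67 ± 0.04, limma adjusted p = 9.36e-08), with an interaction of 0.75 ± 0.06. In SD minus FHH limma called 0 of the 7, 3 had an unadjusted p under 0.05, and the largest difference was that of Bdh1, a ketone body dehydrogenase (-0.44 ± 0.05).

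Of 16 peroxisome biogenesis and membrane genes limma called 0 in PCK minus SD, with a median of -0.04 and an unadjusted p under 0.05 for 11. The division factor Pex11a had signals of 9.35, 9.41 and 9.39 in PCK, 8.90, 8.97 and 9.02 in SD, 9.10, 8.96 and 9.04 in FHH and 8.87, 8.78 and 8.86 in FHH.Pkhd1, with PCK above all others, a difference of 0.42 ± 0.05 in PCK minus SD and an interaction of 0.62 ± 0.06 (SE, limma adjusted p = 1.94e-05). In PCK minus FHH.Pkhd1 2 genes of the list rose (2.94% of all tested genes), Mpv17 (0.83 ± 0.05, limma adjusted p = 2.33e-08) and Pxmp4, a peroxisomal membrane protein (0.59 ± 0.03, limma adjusted p = 1.85e-08). The interaction of Mpv17 was 1.08 ± 0.06. In SD minus FHH limma called 0 of the 16, with an unadjusted p under 0.05 for 9, and the largest difference was that of Pxmp2 (-0.37 ± 0.04).

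**Figure D5:**
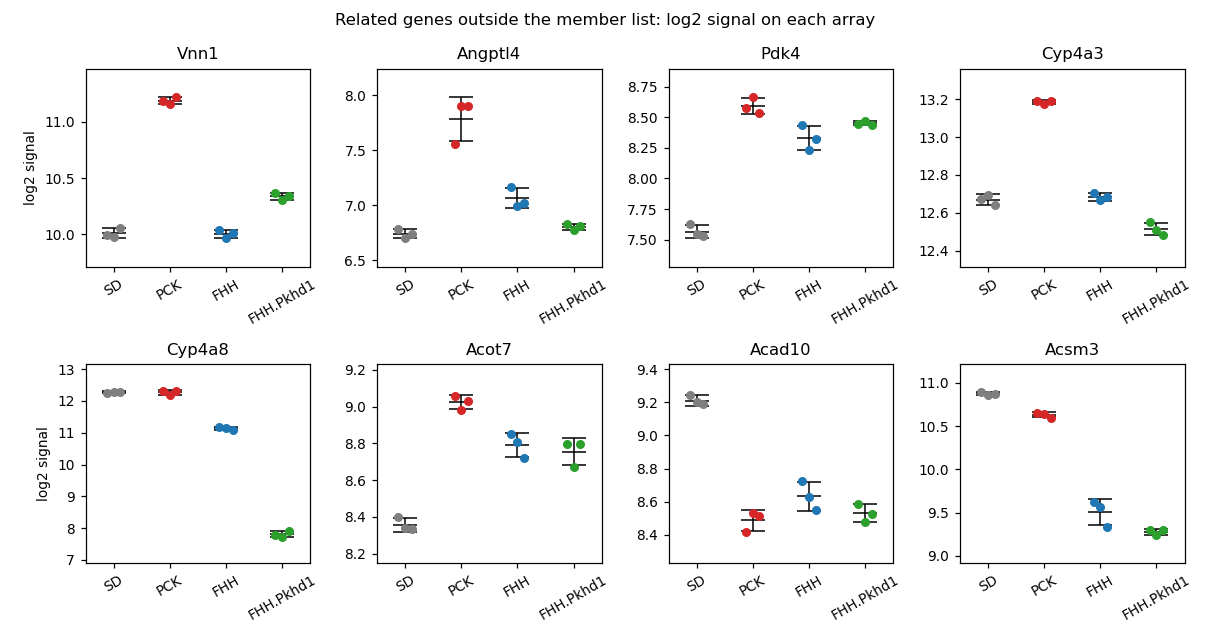
Log2 signal on each array (points, 3 per pool) with the pool mean and standard deviation (bars) for 8 related genes outside the member list; the axes differ between panels. PCK arrays are the highest for Vnn1, Angptl4, Pdk4, Cyp4a3 and Acot7, SD arrays are the highest for Acad10, and FHH.Pkhd1 arrays are the lowest for Cyp4a8.

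Markers of the cell types in these pools moved with some of the comparisons, and fewer cells of a type cannot be told apart from less RNA per cell in such tissue. The mean log2 signal of the proximal tubule list, 23 of 24 markers measured, was 11.40 to 11.42 in PCK, 11.38 to 11.40 in SD, 11.32 to 11.34 in FHH and 11.23 to 11.28 in FHH.Pkhd1. Of these markers 1, Slc22a7, was called higher in PCK than in SD (1.69% of all tested genes), 5 were higher in PCK than in FHH.Pkhd1 (2.94%), and 2, Kap and Slc22a7, were lower in FHH.Pkhd1 than in FHH (0.875%). The red cell list, 4 of 6 measured, was at 8.78 to 8.86 in PCK, 9.70 to 9.83 in SD, 8.81 to 8.90 in FHH and 9.07 to 9.14 in FHH.Pkhd1. SD stood apart, with 3 markers called lower in PCK than in SD (1.43% of all tested genes) and 3 higher in SD than in FHH (1.56%). The principal cell list, 9 of 9 measured, had a median difference of 0.35 in PCK minus SD, with 1 marker called higher (1.69% of all tested genes). The intercalated cell list, 7 of 9 measured, was at 9.85 to 9.92 in PCK, 9.56 to 9.57 in SD, 9.77 to 9.80 in FHH and 9.98 to 10.03 in FHH.Pkhd1. Its medians were 0.43 and 0.21 in the same order, with 1 marker called higher in each. For both lists SD was the lowest pool and FHH.Pkhd1 the highest.

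Brown fat, which oxidizes fatty acids, had 7 of 7 markers measured, among them Cpt1b, and 3 (Elovl3, Cox7a1 and Dio2) below the detection level. The list stood at 6.09 to 6.12 in PCK, 5.94 to 6.06 in SD, 6.72 to 6.77 in FHH and 6.58 to 6.65 in FHH.Pkhd1. The adrenal cortex list, 6 of 8 measured with Cyp11b1 and Cyp17a1 below the detection level, stood at 5.11 to 5.20 in PCK, 5.10 to 5.14 in SD, 6.02 to 6.09 in FHH and 6.63 to 6.78 in FHH.Pkhd1. Acadsb was also highest in FHH.Pkhd1, the pool through which it was tested, and its mean was 5.50 in SD and 5.20 in FHH. White fat markers, 7 of 8 measured, were at 6.75 to 6.76 in PCK, 6.76 to 6.85 in SD, 7.15 to 7.20 in FHH and 7.13 to 7.24 in FHH.Pkhd1. Of them 3 were called lower in SD minus FHH (1.75% of all tested genes) and 3 in PCK minus FHH.Pkhd1 (2.9%). Of 4 tested brown fat markers 3 and 3 were lower in these comparisons, and of 4 tested adrenal cortex markers 3 and 4. For a marker tested through the FHH and FHH.Pkhd1 pools alone, the filter favoured these calls. In FHH.Pkhd1 minus FHH 3 adrenal cortex markers were higher (0.396%) and 1 brown fat marker lower (0.875%). In PCK minus SD 1 brown fat marker was higher (1.69%). The part of these markers in the differences of the members was not tested.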

How the data were processed

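RNA of 4 pools (PCK, SD, FHH, FHH.Pkhd1), 3 arrays each, was labelled as biotinylated cRNA and hybridized to Affymetrix rat arrays, per the labels' protocols. The deposited values are log2 probe set signals, for which the submitters' processing notes name RMA and Partek 6.2. Whether the authors normalized all arrays jointly was not stated. They ran from 2.38 to 14.41 and were used as deposited.

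The platform annotation gave 1 symbol for 20826 of 31099 probe sets, several for 436 and none for 9780, and 57 were controls. Symbols were updated to GRCr8 records by gene ID or accession (20760 matched), and the probe set with the highest mean was kept per gene. Limma 3.58.1 (R 4.3.3) was fitted on all 12 arrays with 1 mean per strain and eBayes (prior degrees of freedom 4.02, residual 8). The Benjamini-Hochberg adjustment ran over the 10863 genes tested. The procedure was tested on simulated data.

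The members, the lists and the tests were chosen with earlier results of these data known. All members are named. Array values are given for called members and for others with large differences or that order the pools, the latter chosen after their values were seen. Called genes of the related lists are named up to the 4 largest per comparison, or the largest difference where none was called, and others are marked as chosen after their values were seen. The labels do not say that arrays with the same replicate number are paired. The deviations of such arrays from their pool means correlated between -0.36 and 0.36 across pools. For replicates 1 and 2 the correlations were positive among SD, FHH and FHH.Pkhd1 (0.07 to 0.36) and negative with PCK. Alternatives covered the filter, probe set choice, fold limit, variance model, arrays fitted, normalization, replicate block and leaving out each array. Promoter windows came from RefSeq (GRCr8), and 35 of 40 members matched by symbol. Figures were drawn with matplotlib 3.10.9.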

Additional observations from a re-analysis of the deposited data

Results flagged for a closer look

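PCK minus SD was not the same as FHH.Pkhd1 minus FHH for 5 of 37 members, against 5.04% of all tested genes. This was called by the limma interaction (PCK minus SD less FHH.Pkhd1 minus FHH) at an adjusted p under 0.05 and 1.5-fold. PCK and SD may also differ outside the PCK segment, and the part of the segment in their difference was not tested. Eci2 differed by 1.80 ± 0.07 (SE), from 0.75 on the SD background and -1.05 on the FHH background, and the probe set it shares with Eci3 gave 0.25 ± 0.09 (limma adjusted p = 0.0545). Ehhadh differed by 0.80 ± 0.07, from 1.01 and 0.21. Acsl3 differed by -0.69 ± 0.08, from -0.45 and 0.24, and it lies on chromosome 9. Crot differed by 0.67 ± 0.06, from 0.65 and -0.02, and its second probe set gave 0.25 ± 0.10 (limma adjusted p = 0.0967). Acadsb differed by -2.05 ± 0.26, from -1.02 and 1.03, but it was tested through the FHH.Pkhd1 pool alone and the means of the 3 other pools lay below the detection level, so these differences are a description. Each value compares pools of 6 animals and not animals.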

How the results depend on the processing

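All 17 calls of members kept their direction and their call with no filter, an intensity trend with robust priors, quantile normalization, subtracted array medians, and each of the 12 arrays left out in turn. With single arrays left out, 6 to 7 members were called in PCK minus SD (7 without SD replicate 1, which added Cpt1b), and throughout 2 were called for FHH.Pkhd1 against FHH, 4 for PCK against FHH.Pkhd1, 0 for SD against FHH and 5 for the interaction. No label states that same-numbered arrays are paired. With the replicate block the counts were 6, 2, 4, 0 and 5 in the same order, and it changed no call.

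The fold limit set the counts. With none, 25, 11, 19, 15 and 17 members passed, and at 2-fold 2, 2, 2, 0 and 2. With the median of all values as the detection level Acadsb was not tested, which left 1 call in FHH.Pkhd1 minus FHH, and 5, 3, 0 and 4 in the others. With the mean of probe sets per gene, which takes in probe sets below the detection level, 4 members were called in PCK minus SD, without Crot (0.29) and Eci1 (0.40), and Crot was also not called in the interaction (0.28). In a fit of the compared arrays alone Acadsb was not tested in PCK minus SD, which left 5 calls. When each probe set was fitted on its own, an alternative chosen after seeing the data, 5 members had a called probe set in PCK minus FHH.Pkhd1, the added one being Acot2. Quantile normalization moved the median difference of all genes by at most 0.06 and gave 7 calls in the interaction. Of differences that were not called, 13 changed sign under it. Signals of Acadsb, Ppara and Acox3 near or below the detection level limit what can be said of them.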

Other observations

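The other lists of mitochondrial genes held no called gene. Of 32 tested respiratory chain genes limma called 0 in each of the 5 comparisons. The median log2 difference was -0.06 for PCK against SD, 0.06 for FHH.Pkhd1 against FHH and -0.13 for PCK against FHH.Pkhd1, where 17, 13 and 25 genes had an unadjusted p under 0.05 and the median over all tested genes was 0.00, 0.01 and -0.05. In the same order 12, 5 and 25 of the 32 had a limma adjusted p under 0.05 with no fold limit. Of all tested genes 36.1%, 22.3% and 53.9% did so. Ndufs1, the largest subunit of complex I, was under the fold limit at -0.53 ± 0.04 (SE, limma adjusted p = 3.59e-06) for FHH.Pkhd1 against FHH, and was also largest for PCK against SD (-0.17 ± 0.04) and in the interaction (0.36 ± 0.06). Atp5po of ATP synthase was largest for PCK against FHH.Pkhd1 (-0.30 ± 0.03) and Ndufv2 for SD against FHH (-0.18 ± 0.03). Their mean log2 signal was 12.10 to 12.12 in PCK and 12.15 to 12.17 in SD. Of 15 tested genes that degrade branched-chain amino acids and propionate, a route in which Acadsb also takes part, limma also called 0, with medians of -0.10, 0.02 and -0.16 in the same order and an unadjusted p under 0.05 for 10, 3 and 12. Bckdhb, a subunit of the branched-chain dehydrogenase, came closest at -0.58 ± 0.03 (limma adjusted p = 4.88e-08) for PCK against FHH.Pkhd1, and was largest for PCK against SD (-0.36 ± 0.03), for SD against FHH (-0.24 ± 0.03) and in the interaction (-0.34 ± 0.05), with Hibch (0.11 ± 0.04) largest for FHH.Pkhd1 against FHH.

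Mpv17, an inner mitochondrial membrane protein held in the peroxisome list, fell in FHH.Pkhd1 against FHH (limma adjusted p = 2.41e-08), at log2 signals of 8.50, 8.39 and 8.39 against 9.42, 9.42 and 9.43. Pecr, the peroxisomal enoyl-CoA reductase of chain elongation, chosen after its values were seen, had an interaction of -0.60 ± 0.06 (limma adjusted p = 8.61e-06).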
